A study of Homo sapiens with 6 samples.

Results

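Integrins, laminins and focal adhesion proteins attach a cell to the matrix beneath it, and the genes that encode them were followed here in CRC cells with SRSF11 knocked down. A gene was included if it is protein-coding and its symbol marks it as an integrin subunit or a laminin chain, or if it is one of a short list of proteins of the adhesion site, namely talins, kindlins, tensins, zyxin, focal adhesion kinase, paxillin, BCAR1, ILK and its partners, and syndecans. The rule uses names and not measured values, though it was set with earlier results of these data known. It found 51 of the 58735 genes in the count table, made up of 14 integrin α subunits, 8 integrin β subunits, 12 laminin chains, 8 adaptors that link integrin tails to actin, 7 kinases and scaffolds, and 2 syndecans. LoVo, an established human CRC line, was transfected with a control siRNA (si-NC, 3 libraries) or with an siRNA against the splicing factor SRSF11 (si-SRSF11, 3 libraries), and polyadenylated RNA was read from both ends at 150 bp. Which of the SRSF11 siRNAs of the study was sequenced is not given in the sources used here. The study calls its RNA samples independent and paired between the conditions, without saying whether they came from separate transfections or what made a pair. The p-values measure the spread between these libraries. The study asked what SRSF11 does in CRC cells that migrate and invade, and the comparison below asks how much RNA of each adhesion gene these cells held with and without the siRNA.

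An integrin is a pair of one α and one β chain that spans the membrane, and the pair decides which matrix protein is bound. Laminins are three-chain proteins, with one α, one β and one γ chain, secreted by epithelial cells into the basement membrane on which the gut epithelium sits. Inside the cell, talins and kindlins bind the integrin tail and switch the receptor on, while focal adhesion kinase, paxillin and the complex of ILK, LIMS1 and parvins pass the contact on to actin and to signalling.

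Library totals lay between 14369525 and 16685719 counts. Levels are given as CPM, the count of a gene relative to its TMM-scaled library size, which compares libraries for one gene, or as RPKM, the CPM per kilobase of annotated exon, which also compares genes. SRSF11 itself fell from 86.3 ± 1.89 in si-NC to 49.4 ± 0.950 CPM in si-SRSF11 (SD, n = 3 each), which left 57.2% of the control level (log2 fold change -0.80 with a standard error, SE, of 0.054, adjusted p = 6.1e-10 by edgeR's quasi-likelihood test). A splicing plot of the study brackets the library names with the opposite conditions, and the level of SRSF11 goes with the deposited labels, which were used here. The adhesion genes together took 0.569% to 0.574% of the counts in si-NC and 0.525% to 0.567% in si-SRSF11.

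Of the 51 genes, 41 had at least 10 counts in at least 3 libraries and were tested. Each of the 41 reached 10 counts in at least 1 library of each condition. In ITGB7, PARVB, ITGA10 and LAMA1, all 3 si-SRSF11 libraries reached 10 counts, and not all 3 si-NC libraries did. These genes met the filter within si-SRSF11, where their mean was higher, and not within si-NC alone. At an adjusted p under 0.05 by edgeR's quasi-likelihood test, 21 of the 41 differed between the conditions, 12 higher and 9 lower in si-SRSF11. Over all 15801 tested genes the shares were 24.6% in either direction, 13.2% higher and 11.4% lower, beside 51.2%, 29.3% and 22.0% for the adhesion genes. Over the 12770 tested genes that are protein-coding, as all adhesion genes are, the shares were 27.4%, 15.4% and 12%. The changes were small. The log2 fold change lay between -0.5 and 0.5 in 35 of the 41 genes, and its median was 0.05 beside 0.00 over all tested genes. Past an absolute log2 fold change of 1 stood 2 genes, ILK and ITGB7, each with few counts, where 1.09% of all tested genes did. In 29 of the 41 genes the 3 si-SRSF11 libraries did not overlap the 3 si-NC libraries, which held for 38.8% of all tested genes.

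**Figure D1:**
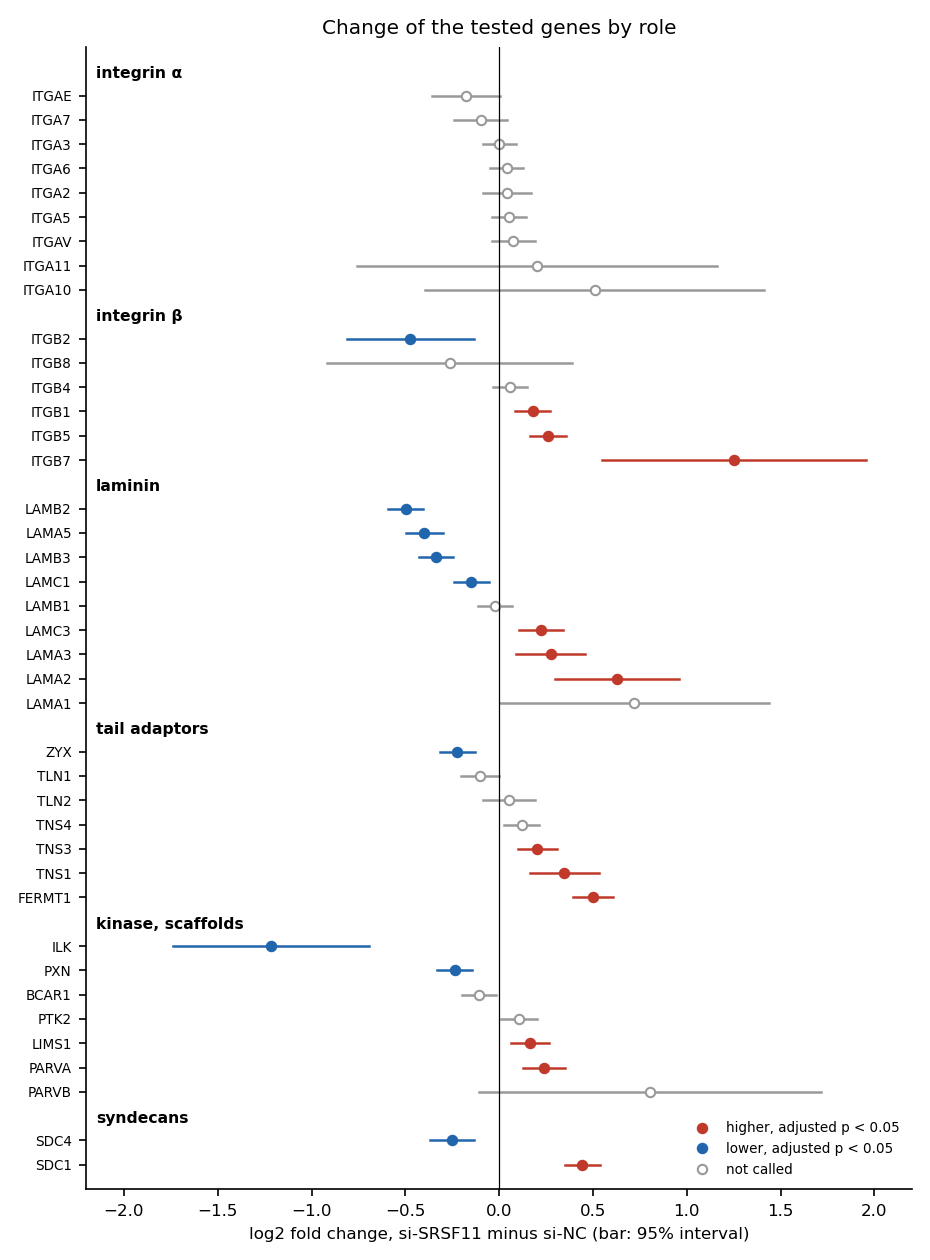
The log2 fold change of the tested adhesion genes (x axis, si-SRSF11 minus si-NC) with its 95% interval, grouped by role, with filled points for the 21 genes at an adjusted p under 0.05. No integrin α subunit is filled, while 7 laminin chains are, 4 to the left and 3 to the right of 0. Of all tested genes, 24.6% passed this threshold.

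The adhesion genes were counted more deeply than most genes, with a median of 1144.5 counts per library beside 331 over all tested genes. Among genes with a mean of at least 500 counts, a limit chosen after the data were seen, 37.8% of 6395 genes passed the test, and 15 of 28 adhesion genes did (53.6%). Of the 13 adhesion genes below that limit, 6 passed. Over all genes, 3885 of the 15801 tested passed, and 2415 of them were among the 6395 deeper genes. The median standard error was 0.048 in the deeper adhesion genes and 0.27 in the other tested adhesion genes.

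**Figure D2:**
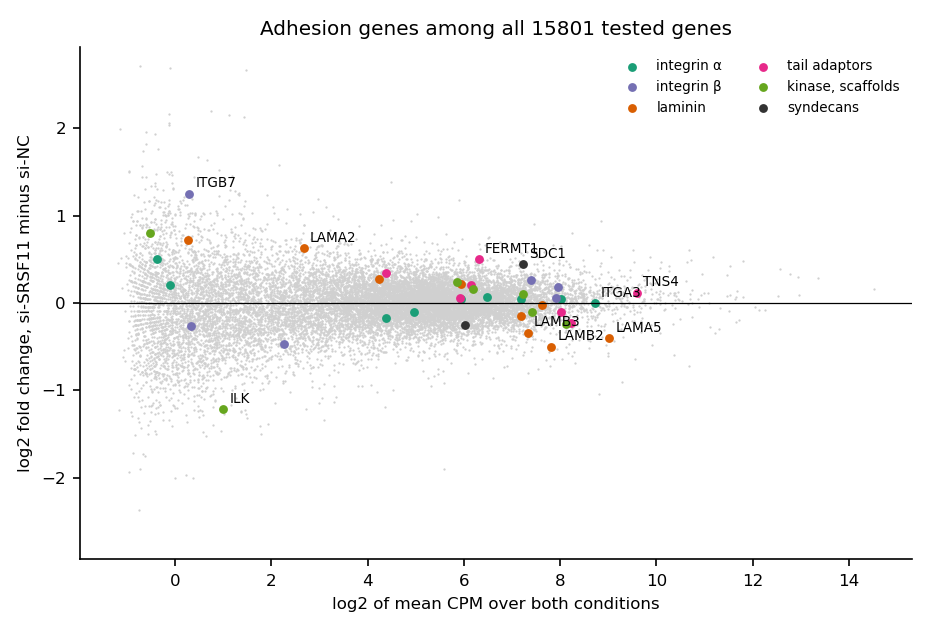
The log2 fold change of every tested gene (y axis) against the log2 of its mean CPM over both conditions (x axis), all 15801 genes in grey and the adhesion genes in the colour of their role. The genes called at high level, such as LAMA5, LAMB2, FERMT1 and SDC1, sit within 0.5 of 0, and ILK and ITGB7 sit farther out at a level where grey points scatter widely.

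No integrin α subunit passed the test. Of the 14 genes, 9 were tested, and 0 of them passed the adjusted test by edgeR, 0 had an unadjusted p under 0.05, and 0 passed by DESeq2. The adjusted test by edgeR was passed by 24.6% of all tested genes, so few calls would be looked for among 9 genes at that share. ITGA3, which pairs with ITGB1 to bind laminin, was the highest α subunit at 43.1 ± 1.24 in si-NC and 43.1 ± 0.336 RPKM in si-SRSF11 (SD, n = 3 each). In CPM it stood at 427, 409 and 431 in the si-NC libraries and at 426, 419.7 and 421 in the si-SRSF11 libraries. The 2 sets overlap, and the 95% interval of the log2 fold change ran from -0.09 to 0.09. ITGA6, the partner of ITGB4 in the hemidesmosome, had 259, 257 and 254 CPM in si-NC and 270.3, 259 and 262 CPM in si-SRSF11. Its log2 fold change was 0.04, with an interval from -0.05 to 0.13. ITGA5, the α chain of the main fibronectin receptor, had 143, 142 and 143 CPM in si-NC and 148, 150.2 and 146 CPM in si-SRSF11, with a log2 fold change of 0.05 and an interval from -0.04 to 0.14. ITGA6 and ITGA5, both higher on average, showed no overlap between the conditions, nor did ITGA7 and ITGAE, with log2 fold changes of -0.10 and -0.18, and none of these 4 passed the test. Libraries did not overlap in 38.8% of all tested genes. The other tested α subunits were ITGAV, ITGA2, ITGA7, ITGAE, ITGA10 and ITGA11, from 11.2 RPKM for ITGAV in si-SRSF11 down to 0.0806 RPKM for ITGA11 in si-NC. Over all 14 subunits, the summed RPKM was 128 ± 1.44 in si-NC and 130.1 ± 2.37 in si-SRSF11 (SD, n = 3 each) (two-sided exact permutation p = 0.30).

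The collagen receptors among the α subunits differed widely in level. ITGA2 held 7.68 ± 0.328 RPKM (SD, n = 3) in si-NC, while ITGA10 and ITGA11 had 3 to 18 and 3 to 22 counts per library, and ITGA1 had 0 to 3. The 5 α subunits below the filter were ITGA1, ITGA2B with 0 to 5 counts, ITGA4 with 0 in all 6 libraries, ITGA8 with 0 to 1 and ITGA9 with 0 to 14. ITGA9, a receptor for tenascin and other ligands, had 1, 0 and 0 counts in si-NC and 5, 14 and 3 counts in si-SRSF11, too few for the main test.

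Of 6 tested integrin β subunits, ITGB1, ITGB5 and ITGB7 were higher and ITGB2 was lower. ITGB1, the β chain shared by most matrix receptors, had 245, 233 and 227 CPM in si-NC and 264, 275 and 258 CPM in si-SRSF11. All 3 si-SRSF11 libraries lay above the si-NC libraries, with a log2 fold change of 0.18 (SE 0.048, adjusted p = 0.0086 by edgeR). Without si-NC replicate 3 the adjusted p was 0.063 at a log2 fold change of 0.15, in a range from 0.0041 to 0.063 over the alternatives. ITGB1 also shares 16.1% of its longest transcript with the gene AC022149.1, at 98% identity or more, so its reads may be split.

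ITGB5, which pairs with ITGAV to bind vitronectin, had 151, 154 and 155 CPM in si-NC and 174, 189 and 188 CPM in si-SRSF11. The conditions stood clear of each other, and the log2 fold change was 0.26 (SE 0.048, adjusted p = 0.00038 by edgeR). ITGAV, its only partner, did not pass the test, with a log2 fold change of 0.07 and an interval from -0.04 to 0.19. ITGB4, the laminin receptor chain of the hemidesmosome, had a log2 fold change of 0.06 with an interval from -0.03 to 0.15.

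Over all 8 β subunits the summed level was 98.7 ± 2.19 in si-NC and 110.0 ± 2.07 RPKM in si-SRSF11 (SD, n = 3 each), a difference of 11.4% (two-sided exact permutation p = 0.10, the smallest that 3 against 3 libraries allow). ITGB1, ITGB4 and ITGB5 made up most of it, with ITGB1 at 39.6% ± 0.683 of the sum in si-NC and 40.2% ± 0.704 in si-SRSF11 (SD, n = 3 each). The share of ITGB4 went from 35.2% ± 0.396 to 32.9% ± 0.712, and that of ITGB5 from 24.1% ± 0.914 to 25.9% ± 0.965 (SD, n = 3 each, exact permutation p = 0.10 for both shares).

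The other β subunits were scarce. ITGB2, the β chain of leukocyte integrins, had 5.78, 4.79 and 6.15 CPM in si-NC and 3.64, 4.11 and 4.28 CPM in si-SRSF11. It was lower without overlap (log2 fold change -0.47, SE 0.17, adjusted p = 0.048 by edgeR), and its adjusted p over the alternatives ran from 0.033 to 0.18, with the call kept in 5 of 14. ITGB7, the β chain of a lymphocyte homing receptor (chr12:53191318-53207307 of GRCh38, minus strand), had 0.344, 0.985 and 0.833 CPM in si-NC and 1.91, 1.47 and 1.84 CPM in si-SRSF11. It was higher in all 3 si-SRSF11 libraries, with a log2 fold change of 1.25 (SE 0.36, adjusted p = 0.013 by edgeR) on 5 to 30 counts per library. Without si-NC replicate 1 the log2 fold change was 0.93 and the adjusted p 0.076, the highest among its alternatives, whose lowest was 0.0059. ITGB7 shares 42.1% of its exon bases with ZNF740 on the opposite strand, and no source says that reads were counted by strand. ZNF740 itself had a log2 fold change of 0.09 (adjusted p = 0.30 by edgeR). ITGB8 had 15 to 27 counts and did not pass. ITGB3 with 0 to 5 counts and ITGB6 with 0 to 2 were not tested.

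**Figure D3:**
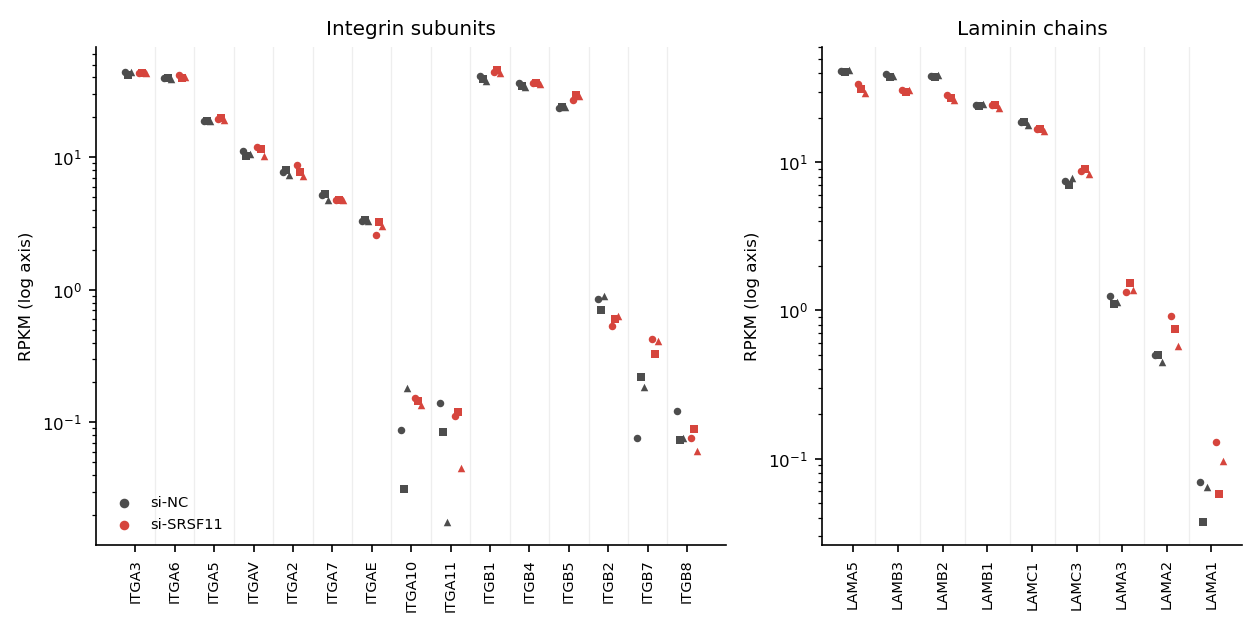
RPKM per library on a log axis for the tested integrin subunits (left) and laminin chains (right), si-NC in grey and si-SRSF11 in red, with circles, squares and triangles for replicates 1, 2 and 3. ITGA3, ITGA6, ITGB1 and ITGB4 stand near 40 RPKM in both conditions, and the red points of LAMA5, LAMB3 and LAMB2 lie below the grey ones.

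Among the laminin chains, 4 of the 5 most abundant per length fell, and 3 scarcer ones rose. Of 10 tested chains, 4 were lower, namely LAMB2, LAMA5, LAMB3 and LAMC1, and 3 were higher, namely LAMA2, LAMA3 and LAMC3. Over all 12 chains the summed level was 176 ± 2.35 in si-NC and 145 ± 4.89 RPKM in si-SRSF11 (SD, n = 3 each), a difference of -17.2% (two-sided exact permutation p = 0.10, the smallest possible). The stretch before the transcription start is shown for LAMA5 and LAMB3, an α and a β chain that fell together, as the 250 bases that RefSeq gives on GRCh38.p14, 5′ to 3′ on the strand of the gene. Capitals mark the GC box GGGCGG on either strand, a site of SP factors, and the AP-1 letters TGANTCA. LAMA5 is transcribed from the minus strand and the bases cover chr20:62367313-62367562. LAMB3 is also on the minus strand, and the bases cover chr1:209651375-209651624, before 1 of its 3 RefSeq starts. That start was chosen because it is the only one with AP-1 letters. Its window lies inside the annotated gene, which spans chr1:209614870-209652466, and 20 of the 250 bases are annotated exon.
LAMA5: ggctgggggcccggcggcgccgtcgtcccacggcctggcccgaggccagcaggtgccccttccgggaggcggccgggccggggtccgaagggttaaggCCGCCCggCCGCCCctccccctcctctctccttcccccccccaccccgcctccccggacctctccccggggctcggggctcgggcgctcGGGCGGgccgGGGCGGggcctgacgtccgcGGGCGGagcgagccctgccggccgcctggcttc
LAMB3: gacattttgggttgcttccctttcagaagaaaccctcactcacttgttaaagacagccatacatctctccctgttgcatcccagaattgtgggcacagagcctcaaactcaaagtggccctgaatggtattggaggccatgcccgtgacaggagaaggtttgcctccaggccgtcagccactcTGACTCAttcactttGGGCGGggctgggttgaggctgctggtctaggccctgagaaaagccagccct
The LAMA5 stretch holds 5 GC boxes and no AP-1 letters, at 82.8% G and C bases. The LAMB3 stretch holds 1 GC box, and its AP-1 letters lie 67 to 61 bases before the start. A match of letters is a description of the sequence and shows no binding.

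LAMB2, a β chain of laminins found in many basement membranes (chr3:49121114-49133118 of GRCh38, minus strand), fell most among the well counted chains. It had 263, 259.6 and 269 CPM in si-NC and 195, 186 and 180.0 CPM in si-SRSF11. The highest si-SRSF11 library was far below the lowest si-NC library, with a log2 fold change of -0.50 (SE 0.047, adjusted p = 9.7e-08 by edgeR). LAMA5, the α chain of the laminins that line the adult gut epithelium, had 592, 579.9 and 603 CPM in si-NC and 482, 446 and 418 CPM in si-SRSF11. It was the most abundant chain per length in si-NC, at 41.4 ± 0.822 RPKM (SD, n = 3), and it went to 31.4 ± 2.26 RPKM (SD, n = 3). Its log2 fold change was -0.40 (SE 0.050, adjusted p = 4.4e-06 by edgeR), with no overlap between conditions.

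LAMB3 encodes the β chain of the hemidesmosome laminin, to which LAMA3 adds the α chain. It had 184, 176 and 179 CPM in si-NC and 143, 139 and 144 CPM in si-SRSF11, again without overlap. The log2 fold change was -0.34 (SE 0.046, adjusted p = 1.3e-05 by edgeR). LAMA3 moved the other way. It went from 18.4, 16.2 and 16.7 CPM to 19.5, 22.5 and 20.02 CPM, with a log2 fold change of 0.27 (SE 0.094, adjusted p = 0.037 by edgeR). That call was held by 8 of 14 alternatives. The adjusted p was 0.13 without si-NC replicate 2, 0.11 without si-NC replicate 3 and 0.18 without si-SRSF11 replicate 2, and the lowest was 0.034. Per length, LAMA3 held 1.17 ± 0.0768 RPKM (SD, n = 3) in si-NC, well under LAMB3 at 38.3 ± 0.872 RPKM (SD, n = 3).

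LAMB1 and LAMC1 join LAMA5 in the most widespread laminin of epithelial basement membranes. LAMB1 did not pass the test, with 199, 197 and 201 CPM in si-NC, 199, 199 and 188 CPM in si-SRSF11, and an interval of the log2 fold change from -0.12 to 0.07. LAMC1, the γ chain of most laminins, had 156, 156 and 150.4 CPM in si-NC and 142, 140.3 and 136 CPM in si-SRSF11. It was lower in every si-SRSF11 library by a small amount (log2 fold change -0.15, SE 0.047, adjusted p = 0.023 by edgeR). The call was lost without si-NC replicate 1 (adjusted p = 0.097), si-NC replicate 2 (0.083) or si-SRSF11 replicate 2 (0.051), in a range that started at 0.0066.

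The chains that rose were less abundant. LAMC3, a γ chain of laminins outside the classic epithelial set, had 57.1, 53.3 and 59.6 CPM in si-NC and 66.8, 68.0 and 63.7 CPM in si-SRSF11. Its log2 fold change was 0.22 (SE 0.059, adjusted p = 0.0076 by edgeR), and without si-NC replicate 2 it was 0.18 (adjusted p = 0.060, the highest of a range that began at 0.00038). LAMA2, the α chain known from the basement membrane of muscle, had 5.16, 5.19 and 4.68 CPM in si-NC and 9.51, 7.80 and 5.94 CPM in si-SRSF11. Every si-SRSF11 library was higher, at unequal distances, and the log2 fold change was 0.63 (SE 0.17, adjusted p = 0.0083 by edgeR). Without si-SRSF11 replicate 1 it was 0.45 (adjusted p = 0.070, the highest of a range that began at 0.0012). LAMA1 had 9 to 32 counts per library and did not pass (log2 fold change 0.72, adjusted p = 0.16 by edgeR). LAMA4 with 0 to 4 counts and LAMB4 with 0 to 1 were not tested.

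**Figure D4:**
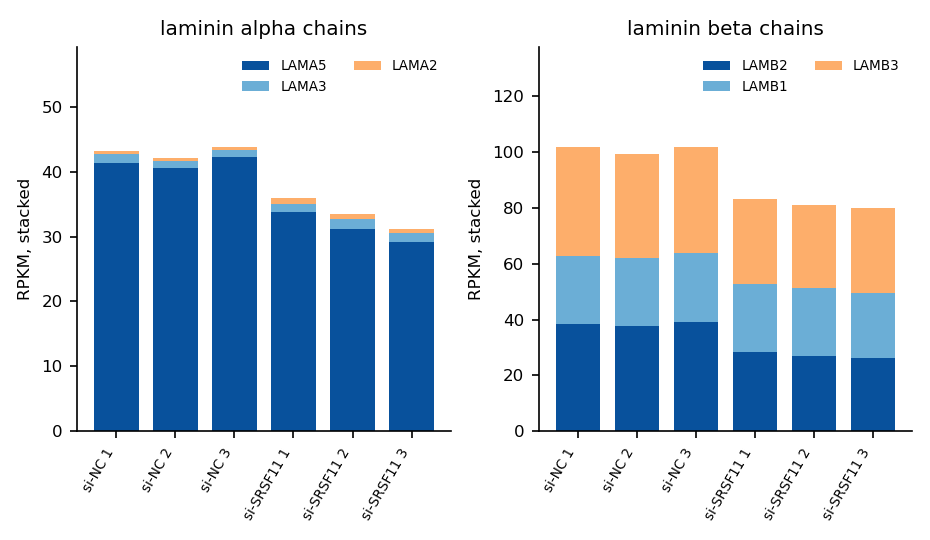
RPKM of the laminin α and β chains stacked per library (y axes from 0), with LAMA1, LAMA4 and LAMB4 left out for their few counts. The β stack went from 101 ± 1.45 to 81.6 ± 1.69 RPKM (SD, n = 3 each), with the LAMB1 block at 24.4 and 24.0 RPKM.

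Because the chains changed by different amounts, the make-up of the laminin RNA shifted. Among β chains, LAMB2 held 37.9% ± 0.432 of the RPKM in si-NC and 33.3% ± 0.635 in si-SRSF11 (SD, n = 3 each), while LAMB1 went from 24.2% ± 0.146 to 29.5% ± 0.59998 (SD, n = 3 each). Neither share overlapped between the conditions (two-sided exact permutation p = 0.10). The share of LAMB3 overlapped, at 37.9% ± 0.543 and 37.2% ± 0.992 (SD, n = 3 each, exact permutation p = 0.30). Among α chains, LAMA5 held 96.0% ± 0.254 in si-NC and 93.3% ± 0.255 in si-SRSF11 (SD, n = 3 each). The summed α level was 43.1 ± 0.838 RPKM in si-NC and 33.7 ± 2.43 RPKM in si-SRSF11 (SD, n = 3 each). These are amounts of RNA from whole cultures, in which fewer cells that make a chain and less of its RNA per cell cannot be told apart.

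Of the adaptors between integrin tails and actin, 7 were tested, and 3 were higher and 1 was lower. FERMT1, the epithelial kindlin that binds β tails and activates integrins (chr20:6074845-6123544 of GRCh38, minus strand), rose most among the well counted adhesion genes. It had 66.8, 65.3 and 65.7 CPM in si-NC and 97.8, 94.5 and 87.4 CPM in si-SRSF11. The spread within a condition was small beside the gap, and the log2 fold change was 0.50 (SE 0.055, adjusted p = 7.0e-07 by edgeR). FERMT2, the kindlin of most other tissues, had 1 to 5 counts per library and was not tested, so nearly all kindlin RNA of these cells among the 2 genes was FERMT1.

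Of the tensins, which tie integrin tails to actin, TNS1 and TNS3 rose. TNS4, a short tensin of epithelial and CRC cells that lacks the actin-binding part, was the most abundant adhesion gene per length, at 154 ± 2.71 RPKM (SD, n = 3) in si-NC. It had 729.5, 748 and 755 CPM in si-NC and 865, 794 and 766 CPM in si-SRSF11, without overlap but short of the threshold (log2 fold change 0.12, interval 0.03 to 0.21, adjusted p = 0.070 by edgeR). Without si-SRSF11 replicate 3 it passed, at 0.15 and an adjusted p of 0.011, in a range that reached 0.30. TNS1 passed with 17.3, 18.1 and 19.99 CPM in si-NC and 25.5, 23.9 and 21.3 CPM in si-SRSF11 (log2 fold change 0.35, SE 0.093, adjusted p = 0.0086 by edgeR). TNS3 passed too, with 66.2, 66.1 and 67.0 CPM in si-NC and 76.1, 79.5 and 73.9 CPM in si-SRSF11 (log2 fold change 0.20, SE 0.053, adjusted p = 0.0074 by edgeR). In both genes each si-SRSF11 library was above each si-NC library.

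ZYX, zyxin, which gathers at strained actin fibres and mature adhesions, fell. It had 319, 317 and 337 CPM in si-NC and 283, 267 and 284 CPM in si-SRSF11, with no overlap and a log2 fold change of -0.22 (SE 0.047, adjusted p = 0.0014 by edgeR). The talins, which couple β tails to actin directly, did not pass. TLN1 had 263, 264 and 285 CPM in si-NC and 264, 259 and 233 CPM in si-SRSF11, with overlapping libraries and an interval of the log2 fold change from -0.21 to 0.00. TLN2 was scarcer, at 3.65 ± 0.105 RPKM beside 26.8 ± 1.25 RPKM for TLN1 in si-NC (SD, n = 3 each), and its interval ran from -0.09 to 0.19.

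**Figure D5:**
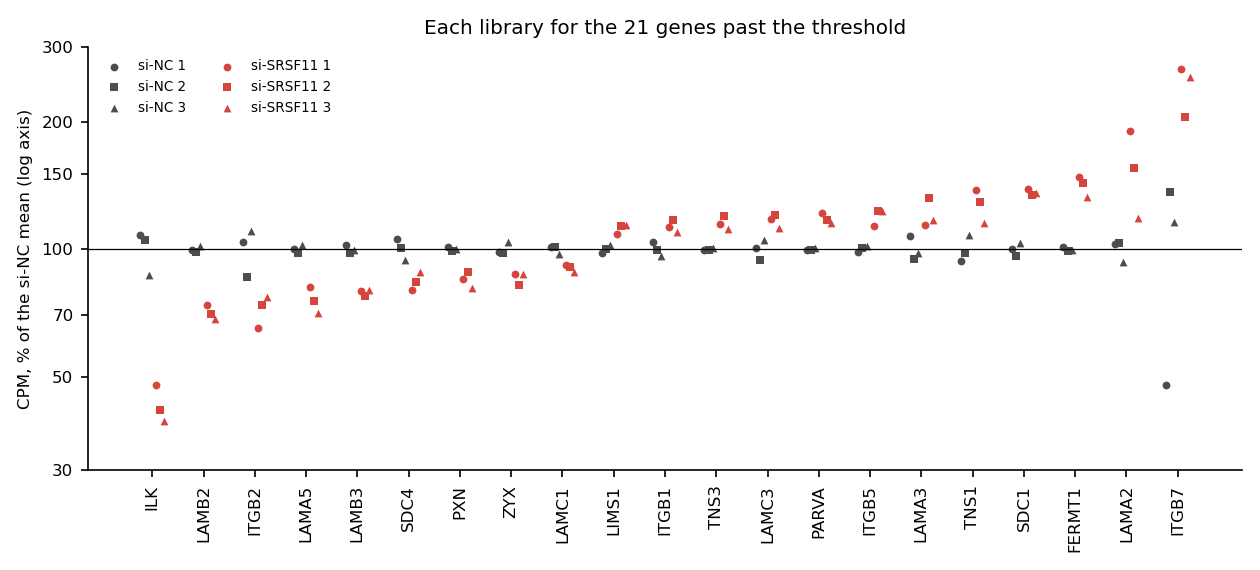
CPM of each library as a percentage of the si-NC mean (log axis) for the 21 adhesion genes past the threshold, ordered by log2 fold change, si-NC in grey and si-SRSF11 in red. No red point lies among the grey points of its gene, and the grey points of ITGB7, ITGB2 and ILK scatter most.

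Of the 7 kinases and scaffolds, 2 were higher and 2 were lower. PXN, paxillin, the docking platform for focal adhesion kinase, had 305, 297 and 301 CPM in si-NC and 256, 266 and 244 CPM in si-SRSF11. It fell without overlap, with a log2 fold change of -0.24 (SE 0.047, adjusted p = 0.00072 by edgeR). PXN shares 12.3% of its exon bases with PXN-AS1 on the opposite strand, whose log2 fold change was -0.46 (adjusted p = 0.097 by edgeR) at 4.64 CPM in si-NC. PTK2, focal adhesion kinase itself, had 142, 147 and 145 CPM in si-NC and 163, 152 and 151 CPM in si-SRSF11. The libraries did not overlap, and the difference did not pass (log2 fold change 0.11, interval 0.01 to 0.20, adjusted p = 0.12 by edgeR). BCAR1, a scaffold that focal adhesion kinase and Src phosphorylate, had a log2 fold change of -0.11 (interval -0.20 to -0.01, adjusted p = 0.10 by edgeR).

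ILK, LIMS1 and the parvins form the complex that anchors β tails to actin next to the kindlins. PARVA, the parvin of epithelial and most other cells, rose, with 53.4, 53.5 and 54.0 CPM in si-NC and 65.3, 62.6 and 61.9 CPM in si-SRSF11 (log2 fold change 0.24, SE 0.056, adjusted p = 0.0030 by edgeR). LIMS1, which binds ILK, had 67.5, 69.1 and 70.4 CPM in si-NC and 74.9, 78.2 and 78.8 CPM in si-SRSF11. It was higher in all 3 libraries (log2 fold change 0.16, SE 0.053, adjusted p = 0.027 by edgeR), and the call held in 5 of 14 alternatives, with adjusted p from 0.020 to 0.12 and the highest without si-NC replicate 1. LIMS1 shares 19.5% of its longest transcript with 4 other genes, LIMS3 first, so its counts are uncertain. PARVB had 3 to 20 counts and did not pass.

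ILK showed the largest change of all tested adhesion genes in the lower direction, and it rests on few reads. It lies at chr11:6603708-6610874 of GRCh38 on the plus strand, and had 3.03, 2.96 and 2.43 CPM in si-NC and 1.34, 1.17 and 1.10 CPM in si-SRSF11. These are 18 to 45 counts per library. The conditions did not overlap, with a log2 fold change of -1.22 (SE 0.27, adjusted p = 0.0017 by edgeR). Of the exon bases of ILK, 78.5% also belong to other genes, 68.1% to TAF10 on the opposite strand alone. TAF10, a subunit of the general transcription machinery, fell as well (log2 fold change -0.37, adjusted p = 0.0081 by edgeR), and no source says that reads were counted by strand, so those of the 2 genes cannot be told apart and the value of ILK is uncertain.

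The 2 syndecans, membrane proteoglycans that bind matrix beside the integrins, moved in opposite directions. SDC1, the main syndecan of epithelial cells, had 127, 122 and 132 CPM in si-NC and 176, 170.1 and 172 CPM in si-SRSF11. The gap between the conditions was wider than the spread within either, with a log2 fold change of 0.44 (SE 0.048, adjusted p = 5.0e-07 by edgeR). SDC4, the syndecan found in focal adhesions, had 75.02, 71.3 and 66.9 CPM in si-NC and 56.7, 59.4 and 62.7 CPM in si-SRSF11. It was lower without overlap, with a log2 fold change of -0.25 (SE 0.060, adjusted p = 0.0032 by edgeR). Per length, SDC1 went from 35.3 ± 1.27 to 48.1 ± 0.858 RPKM and SDC4 from 27.2 ± 1.56 to 22.8 ± 1.14 RPKM (SD, n = 3 each). The bases before their starts are set side by side because the pair diverged, in the same form as for the laminins and both read on the minus strand. SDC1 is shown at chr2:20225476-20225725, before 1 of its 2 RefSeq starts, and SDC4 at chr20:45348425-45348674.
SDC1: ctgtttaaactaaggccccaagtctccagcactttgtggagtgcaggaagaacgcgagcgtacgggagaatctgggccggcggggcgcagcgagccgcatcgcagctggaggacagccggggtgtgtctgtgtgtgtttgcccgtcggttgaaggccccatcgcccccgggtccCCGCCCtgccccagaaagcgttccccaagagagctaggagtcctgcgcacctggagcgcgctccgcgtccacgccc
SDC4: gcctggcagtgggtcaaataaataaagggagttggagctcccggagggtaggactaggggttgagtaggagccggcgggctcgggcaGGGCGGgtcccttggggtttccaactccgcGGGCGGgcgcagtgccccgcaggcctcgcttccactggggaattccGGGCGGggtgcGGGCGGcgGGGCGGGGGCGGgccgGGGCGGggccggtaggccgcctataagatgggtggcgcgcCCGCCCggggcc
SDC4 holds 8 GC boxes and SDC1 holds 1, and neither holds AP-1 letters. The G and C share is 73.6% for SDC4 and 66.4% for SDC1.

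RefSeq gave such a stretch for 38 of the 51 genes, with 61 starts among them, beside 35116 starts of all genes. The GC box was found before 55.74% of the adhesion starts and 42.64% of all starts, and AP-1 letters before 6.56% and 6.57%. The adhesion genes with AP-1 letters were BCAR1, LAMA3, LAMB3 and LIMS1, of which LAMA3 and LIMS1 rose, LAMB3 fell and BCAR1 did not pass. The TEAD letters GGAATG stood before 11.48% of adhesion starts and 11.89% of all, the E-box CACGTG before 3.28% and 6.34%, the CRE TGACGTCA before 0.00% and 1.65%, and the CArG box before 1.64% and 1.16%. All letters were searched on both strands, and a CRE is not itself an AP-1 match. LAMB2 holds 1 GC box and no AP-1 letters and LAMA3 holds 1 GC box and 2 AP-1 matches in their windows. Of the 250 bases, 68 in the LAMB2 window and 180 in the LAMA3 window are annotated exon. The LAMA3 window, at chr18:23872770-23873019, lies inside the annotated gene, which spans chr18:23689443-23956222.

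By the median, G and C content was higher in the genes that fell than in those that rose. This content was taken over the longest transcript of each gene. The median was 52.5% in the 12 genes that rose, 59.99% in the 9 that fell and 53.1% in those that did not pass. Across genes, which are not independent replicates and share these 6 libraries, the log2 fold change had a Spearman correlation with G and C content of -0.25 over the 41 adhesion genes and of -0.16 over 15794 tested genes, and the part of base content in these changes was not tested. With a G and C offset per library, an alternative chosen after seeing the data, 21 adhesion genes were again called, 13 higher and 8 lower. LIMS1 and ITGB2 were lost and TNS4 and ITGB4 were gained, while LAMA5, LAMB2, LAMB3, PXN, ZYX and SDC4 stayed lower. The offset made the fold of ZYX smaller, from -0.22 to -0.13 (adjusted p = 0.029 by edgeR), and that of LAMA5, from -0.40 to -0.29. LAMB2 went from -0.50 to -0.46, LAMB3 from -0.34 to -0.31 and PXN from -0.24 to -0.20, and SDC4 from -0.25 to -0.26.

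Other genes of the pathway were read from 2 lists, 18 further ligands and basement membrane genes and 48 further genes of the adhesion complex and its signalling. Of the 66 genes 57 were tested, and 16 passed, 6 higher and 10 lower (28.1% of those tested). Among the ligands 11 were tested, 2 were higher and 3 were lower. VTN, vitronectin, a ligand of the ITGAV and ITGB5 pair, rose from 105 ± 2.66 to 137 ± 6.53 CPM (SD, n = 3 each), with a log2 fold change of 0.38 (adjusted p = 6.1e-06 by edgeR). AGRN, agrin, a proteoglycan of basement membranes that binds laminin, fell from 1419.7 ± 39.5 to 1199 ± 14.7 CPM (SD, n = 3 each), with a log2 fold change of -0.24 (adjusted p = 0.00014 by edgeR). COL17A1, the collagen of the hemidesmosome, rose from 48.0 ± 1.06 to 59.4 ± 0.146 CPM (SD, n = 3 each), with a log2 fold change of 0.31 (adjusted p = 0.00038 by edgeR).

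Among the adhesion complex genes 46 were tested, 4 were higher and 7 were lower, a share of 23.9% that stands beside 24.6% of all genes. VCL, vinculin, which links talin to actin, fell from 313 ± 1.38 to 248 ± 7.63 CPM (SD, n = 3 each, adjusted p = 1.3e-05 by edgeR). DAG1, dystroglycan, a laminin receptor that is no integrin, rose from 159 ± 1.77 to 198 ± 4.85 CPM (SD, n = 3 each), with a log2 fold change of 0.32 (adjusted p = 2.5e-05 by edgeR). CAV1, caveolin, fell from 20.5 ± 0.879 to 13.9 ± 0.848 CPM (SD, n = 3 each), with a log2 fold change of -0.57 (adjusted p = 0.00014 by edgeR). These 2 lists, like the adhesion genes themselves, held changes in both directions.

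Markers of the cells were read beside these values. All 10 epithelial and colorectal markers were tested, and their summed level lay between 5723 and 6081 CPM in si-NC and between 5816 and 6218 CPM in si-SRSF11. KRT8 made up most of this sum, and CDX2 and CDX1, transcription factors of the intestine, rose with log2 fold changes of 0.40 and 0.31 (adjusted p = 0.00038 and 0.0012 by edgeR). The part of these changes in the adhesion results was not tested. Of 8 fibroblast markers 3 were tested, DCN and LUM were at 0 in all libraries, and the sum was 23.9 to 27.3 CPM in si-NC and 28.1 to 32.7 CPM in si-SRSF11. PDGFRB rose, with a log2 fold change of 0.70 (adjusted p = 0.00023 by edgeR), while ACTA2 and COL1A1, at -0.22 and -0.12, did not pass. Of 7 leukocyte markers 1 was tested, PTPRC was at 0, and the sum went from 3.22 to 4.199 CPM in si-NC to between 5.04 and 5.34 CPM in si-SRSF11. Of 4 endothelial markers 2 were tested, KDR was at 0, and the sum was 1.47 to 2.56 CPM in si-NC and 0.796 to 2.04 CPM in si-SRSF11. The share of counts from mitochondrial genes was 7.003% to 7.25% in si-NC and 8.29% to 8.51% in si-SRSF11, and its part in the adhesion results was not tested.

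Over the 14 alternatives of scaling, filter, test and libraries, 12 adhesion genes were called each time. The same count over all genes was not made. The 6 that rose were FERMT1, ITGB5, PARVA, SDC1, TNS1 and TNS3, and the 6 that fell were LAMA5, LAMB2, LAMB3, PXN, SDC4 and ZYX.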

How the data were processed

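Each condition of LoVo cells, si-NC and si-SRSF11, had 3 RNA libraries. The authors deposited raw counts per gene, with no normalization, and their exon length per gene; the labels name hg38, and the gene identifiers and lengths match GENCODE 29. The aligner and the counting program are not given in the sources used here, and the library kit is not stated to mark strand. Samples were grouped by the deposited labels. Genes that reached 10 counts in 3 or more libraries were scaled by TMM and tested with edgeR (version 4.0.16, R version 4.3.3) by glmQLFit and glmQLFTest on condition, with Benjamini-Hochberg adjustment over 15801 genes and a threshold of 0.05. Standard errors came from the F statistic, and the biological coefficient of variation was 5.34%. The 95% intervals took a normal quantile of these errors and can be narrower than the test allows. For LAMA1 the interval ran from 0.002 to 1.44 at an unadjusted p of 0.062 by edgeR. Summed levels and shares within a family were compared between the conditions by a two-sided exact permutation test, whose smallest p is 0.10. Alternatives were DESeq2 (version 1.42.0), other filters, upper quartile or library size scaling, protein-coding genes only, a replicate block, each library left out, and a G and C offset added later. Shared sequence was found by BLAST (version 2.17.0) at 98% identity over at least 100 bases.

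The members and lists were chosen with earlier results of these data known. Every member past the threshold, the 3 highest by RPKM in each role, members below the filter, SRSF11, and the 3 smallest adjusted p of each pathway list are named, and other names were chosen after their values were seen. Values of 1 laminin chain are not reported or drawn here. Replicates differed by more than counting error, with a chi-square per degree of freedom of 2.09 to 5.51.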

Additional observations from a re-analysis of the deposited data

How the results depend on the processing

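The count of adhesion genes past the threshold was 17 to 21 over the 14 alternatives, and 12 genes were called in all of them. Over all genes the calls varied too, with 1542 higher and 1452 lower by DESeq2. Without si-NC replicate 1, 1473 were higher and 1268 lower over all genes, beside 2081 and 1804 in the main fit. How many of all genes were called in every alternative was not counted. The median log2 fold change of the adhesion genes went from 0.05 to 0.0186 with scaling by library size, and lay between 0.0258 and 0.0927 with each library left out, lowest without si-SRSF11 replicate 1 and highest without si-SRSF11 replicate 3. The other pathway genes past the threshold numbered 11 to 21 with a library left out, beside 16, lowest without si-NC replicates 1 or 3. Scaling by library size called 1588 genes higher and 2286 lower over all genes, beside 2081 and 1804, and moved the median of all genes to -0.033. It added BCAR1 (adjusted p = 0.027 by edgeR, up to 0.60 under others) and lost LAMA3 and LIMS1. Some values near 0 changed sign without passing the test. ITGA3 was 0.000211 with the replicate block, 0.0501 with the G and C offset and at most 0.0148 with a library left out, where it ranged from -0.0240. ITGA2 was -0.00445 with the G and C offset and ranged from -0.0353 to 0.0927 with a library left out. ITGA11 ranged from -0.283 to 0.840, ITGB8 from -0.406 to 0.00494 and TLN2 from -0.0457 to 0.134 with a library left out. A filter of 50 counts dropped ILK and ITGB7 from the test, and a filter of 1 count brought in and called ITGA9. DESeq2 called 18 adhesion genes and lost ITGB2, LAMA3 and LIMS1. With the replicate number as a block, 20 adhesion genes were called, 12 higher and 8 lower, and ITGB2 was lost (adjusted p = 0.055 by edgeR). Deviations from the group means had correlations of 0.00527, 0.0438 and 0.0532 in same-numbered libraries. In differently numbered libraries they ranged from -0.0501 to 0.00498. All were small, and whether the numbers mark pairs was not tested. The cause of these shifts was not tested. In adhesion genes below a mean of 500 counts the median SE was 0.27, beside 0.048 in the deeper ones, so values there are less precise.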
